A study of Homo sapiens with 6 samples.

Results

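The 85 RNAs described here were the expressed intergenic long non-coding RNAs with LINC names in PANC-1 cells. They were taken from 60835 gene symbols as those that read LINC followed by digits only and had at least 200 counts over 6 libraries. They were thus chosen by their count total, without regard to group, and their being expressed is no finding. Of 2236 such symbols in the table, 1178 had no count and 973 had fewer than 200 but at least 1. Just inside the limit were LINC01224, LINC01176 and LINC00665 with 205, 207 and 209 counts. Just outside it lay LINC00106 and LINC01730 with 196 each and LINC02245 with 195. Biotypes from GENCODE release 29 named 62 of the 85 as lincRNA, 10 as processed transcripts, 6 as transcribed pseudogenes, 3 as antisense, 2 as bidirectional promoter lncRNAs, 1 as sense overlapping and 1, LINC02693, as protein-coding, so the label of intergenic held for most of them and not for each.

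PANC-1 is an established line of pancreatic epithelioid carcinoma, and in all 6 libraries SMAD4 had been knocked out before SMAD4 was put back. In 3 libraries the cells were given wild-type (WT) SMAD4 and in 3 SMAD4 R272K, in which lysine stands in place of an arginine, all on day 3. The promoter of the constructs, the number of clones and whether replicates were separate cultures are not stated in the labels. The p-values below therefore rest on the spread among these libraries, which may be technical. Knockout cells without added SMAD4 were not analysed here.

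A LINC name is a placeholder given to a long non-coding RNA gene that lies between protein-coding genes and has no better description. Such RNAs are mostly transcribed by RNA polymerase II, and many are spliced and carry a poly(A) tail, which lets the oligo(dT) capture used here retain them. They are on the whole less abundant and more restricted in tissue than messenger RNAs, and some act on a neighbouring gene. SMAD4 is the common partner of the SMAD proteins that carry TGF-β and BMP signals to DNA. The comparison asks which of these RNAs differed between cells with R272K and cells with WT SMAD4.

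Library totals ran from 14776148 to 17706201 counts. SMAD4 itself stood at 83.4 to 93.6 CPM (counts scaled to a common library size by the TMM method) with WT and 40.6 to 45.7 CPM with R272K SMAD4, so the amount of SMAD4 transcript and the substitution cannot be told apart as sources of any difference below. On the first principal component (32.2% of the variance) WT replicate 1 lay at -31.3 and the other 5 libraries between -9.56 and 15.6, and results are given without it where it matters. The epithelial markers KRT7, KRT8, KRT18, KRT19 and EPCAM summed to 3026 to 3770 CPM with WT and 3798 to 4106 CPM with R272K. KRT8 supplied most of these sums, at 2043 to 2532 CPM with WT and 2700 to 2895 CPM with R272K. Log2 fold changes were 0.32 for KRT8, 0.11 for KRT18 and 0.39 for EPCAM, but -0.13 for KRT7 and -0.10 for KRT19. None of these markers had an adjusted p under 0.05 in edgeR's test. Acinar, endocrine, leukocyte and endothelial lists each summed to at most 1.07 CPM in any library. SST, an endocrine marker, was at 0 throughout. In the fibroblast list COL1A1 supplied nearly all of a sum of 145 to 152 CPM with WT and 229 to 251 CPM with R272K, while DCN, LUM and PDGFRB each stayed under 1 CPM. COL1A1 had a log2 fold change of 0.70 and an adjusted p of 3.5e-05 in edgeR's test. The part of these shifts in the differences below was not tested. In RNA from bulk cells, fewer cells with a transcript and less of it per cell cannot be told apart.

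LINC02575 was the only one of the 85 whose level differed between groups after adjustment, and it is the sequence to look at first. Its gene (ENSG00000228709) lies on the plus strand of chromosome 21, at 44485463 to 44495519 (GRCh38, as deposited). GENCODE release 29 gives it 1 transcript of 912 bases in 2 exons, with exon 1 at 44485577 to 44486230 and exon 2 at 44490031 to 44490288. The last 42 bases of exon 1 and all 258 of exon 2 are printed here 5′ to 3′, with exon 2 in capitals, because their junction marks the spliced RNA. The authors divided by a length for LINC02575 that was 1.89 times the one for LINC01134, whose longest release 29 transcript has 3059 bases, so their model of LINC02575 was longer than the one shown.
LINC02575: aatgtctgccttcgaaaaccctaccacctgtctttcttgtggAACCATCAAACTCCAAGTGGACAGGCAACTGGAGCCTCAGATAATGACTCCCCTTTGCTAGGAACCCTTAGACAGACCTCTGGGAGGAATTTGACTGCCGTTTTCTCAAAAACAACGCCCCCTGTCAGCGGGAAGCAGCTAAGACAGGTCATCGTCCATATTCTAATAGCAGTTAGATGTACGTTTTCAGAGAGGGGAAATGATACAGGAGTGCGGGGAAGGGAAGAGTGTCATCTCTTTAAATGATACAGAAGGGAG

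With R272K SMAD4, LINC02575 rose 1.65-fold (95% interval 1.47 to 1.85). It had 552, 407 and 466 counts in WT replicates 1 to 3 and 754, 750 and 740 counts in R272K replicates 1 to 3. On the CPM scale these were 31.5, 27.5 and 30.5 with WT and 49.5, 49.9 and 48.2 with R272K. All 3 R272K libraries lay above all 3 WT libraries, with a gap between the groups far wider than the spread inside either. Means were 29.8 ± 2.07 and 49.2 ± 0.888 CPM (SD, n = 3 each). R272K over WT gave 0.72 on the log2 scale, with a standard error (SE) of 0.077 and an adjusted p of 0.00025 in edgeR's quasi-likelihood test with Benjamini-Hochberg adjustment over 15911 genes. Per length it stood at 16.0 ± 1.02 TPM with WT and 26.8 ± 0.186 TPM with R272K (SD, n = 3 each), where TPM is the authors' length-scaled abundance. Its call was kept in each of 19 alternative analyses, with a log2 fold change between 0.66 and 0.76 and adjusted p between 1.15e-12 and 0.0298.

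That single call has to be read against the rest of the transcriptome. Of all genes tested, 193 of 15911 were called at an adjusted p below 0.05, which is 1.21%, and 1 of 85 is 1.18%. Calls in the higher direction made up 0.685% and calls in the lower direction 0.528% of all genes, against 1 and 0 of the 85. The share of LINC RNAs called was thus near the background. At an unadjusted p under 0.05 there were 7 of the 85, 2 higher and 5 lower, or 8.24%, against 14.3% of all genes (7.18% higher and 7.09% lower). Among the 10553 genes whose count total lay in the same range as the members', 1.4% were called and 15.9% had an unadjusted p under 0.05. Libraries of the groups did not overlap for 16 of the 85, 6 higher and 10 lower with R272K, or 18.8%, and for 21.4% of all genes (10.9% higher and 10.4% lower, and 22.5% in that count range). The background moved with the analysis while the count of members called was 1 in each of the following. It was 5.36% without WT replicate 1, 0.512% without WT replicate 2 and 1.69% without WT replicate 3. Leaving out R272K replicates 1, 2 and 3 gave 0.362%, 0.367% and 0.337%. DESeq2 called 1.75%, and removal of the gene length trend gave 3.89%.

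**Figure D1:**
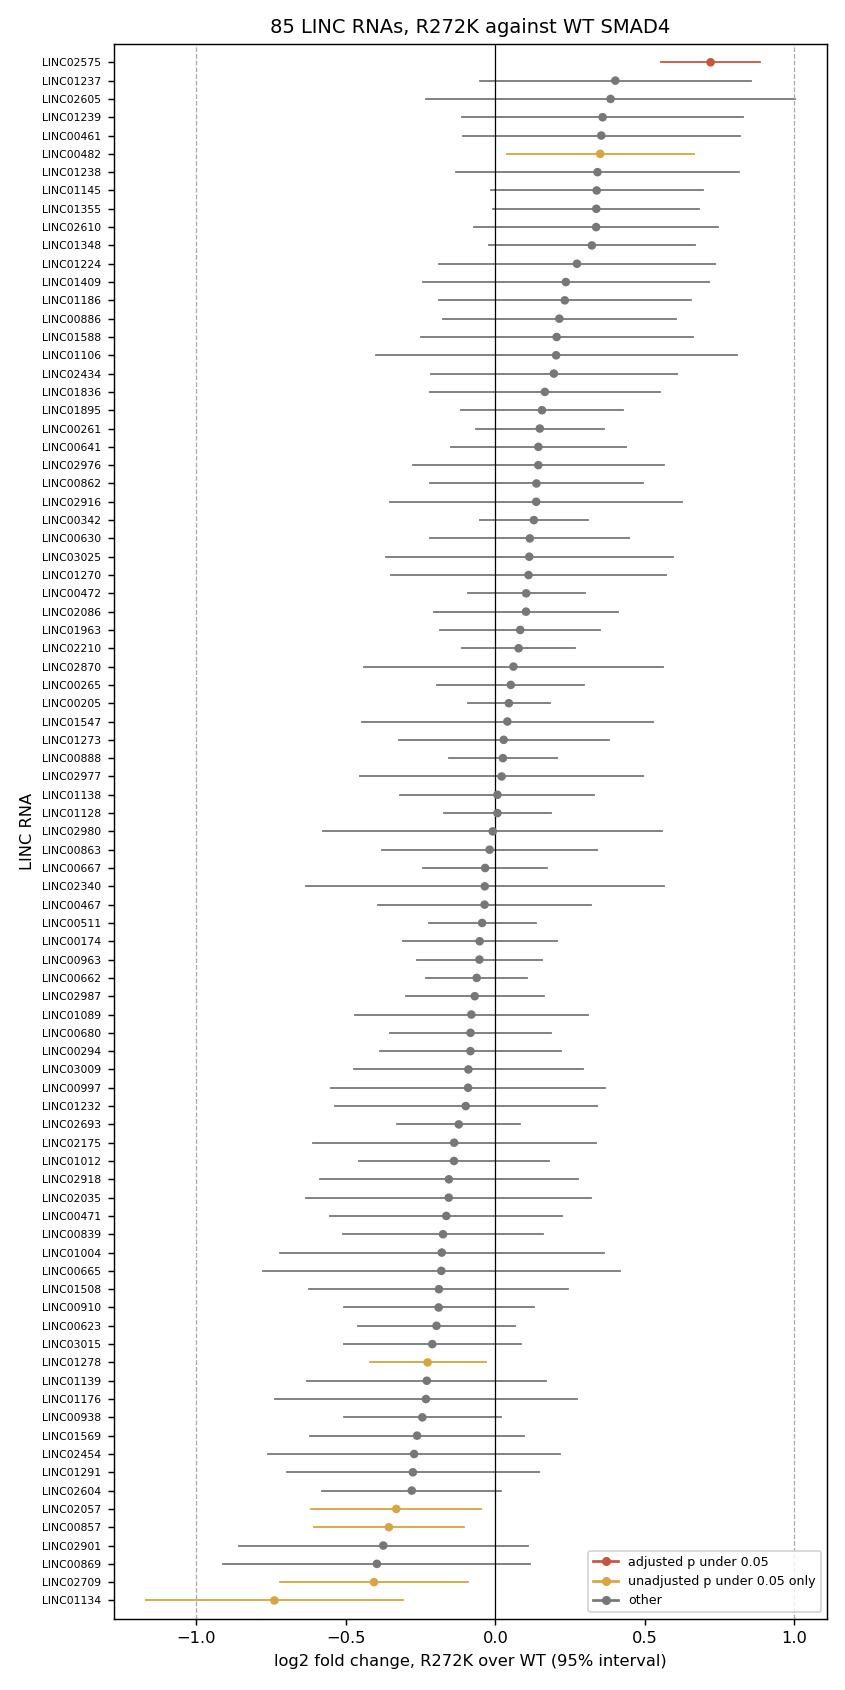
Log2 fold change of R272K over WT SMAD4 for the 85 LINC RNAs (points) with 95% intervals (lines), ordered by fold change. Dashed lines mark 2-fold. LINC02575 stands at the top at 0.72, LINC01134 at the bottom at -0.74, and most intervals cross 0.

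Both directions were about equally common. Log2 fold changes were above 0 for 42 and below 0 for 43 of the 85, with a median of -0.01, against 0.00 over all genes tested. The middle of the distribution, from the lower to the upper quartile, ran from -0.16 to 0.14, against -0.12 to 0.12 over all genes. Summed over the 85, LINC RNAs made 873, 893 and 891 CPM in the WT libraries and 902, 900 and 905 CPM in the R272K libraries. These sums did not overlap. Without LINC02575 they were 842, 866 and 860 CPM with WT and 852, 850 and 857 CPM with R272K, which overlapped.

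A further 6 RNAs had an unadjusted p under 0.05 and did not pass the adjustment. Their promoters are shown next because of that unadjusted p, so a reader can compare the starts of these genes. The groups did not overlap for any of these 6, which are among the 16 of the 85 without overlap. Over all genes tested 21.4% did not overlap. RefSeq promoters, 250 bases before to 50 after the annotated start in GRCh38.p14, were found by symbol for 64 of the 85. LINC02575 was not among them. Capitals mark each match, on either strand, to 7 motifs: the SMAD box GTCTAGAC, the short SMAD element CAGAC, the GC-rich GGCGCC, the interferon element ISRE (GAAA and GAAA, 2 bases apart), the AP-1 site TGANTCA, the kappa B site (GGGA and CC, 4 bases apart) and TATAAA.
LINC01134 (chr1:3900154-3900453, plus strand): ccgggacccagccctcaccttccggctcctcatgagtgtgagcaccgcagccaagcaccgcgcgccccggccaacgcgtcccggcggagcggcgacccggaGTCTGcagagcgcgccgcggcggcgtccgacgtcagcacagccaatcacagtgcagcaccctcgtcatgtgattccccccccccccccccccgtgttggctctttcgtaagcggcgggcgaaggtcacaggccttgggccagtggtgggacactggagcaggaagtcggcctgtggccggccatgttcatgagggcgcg
LINC00857 (chr10:80207460-80207759, plus strand): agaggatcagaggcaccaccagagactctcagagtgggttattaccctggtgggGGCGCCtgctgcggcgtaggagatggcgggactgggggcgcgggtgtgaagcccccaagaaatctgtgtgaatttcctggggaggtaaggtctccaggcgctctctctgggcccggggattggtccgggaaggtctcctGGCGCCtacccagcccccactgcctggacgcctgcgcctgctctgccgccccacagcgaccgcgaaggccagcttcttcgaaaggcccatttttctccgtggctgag
LINC02709 (chr11:9759484-9759783, minus strand): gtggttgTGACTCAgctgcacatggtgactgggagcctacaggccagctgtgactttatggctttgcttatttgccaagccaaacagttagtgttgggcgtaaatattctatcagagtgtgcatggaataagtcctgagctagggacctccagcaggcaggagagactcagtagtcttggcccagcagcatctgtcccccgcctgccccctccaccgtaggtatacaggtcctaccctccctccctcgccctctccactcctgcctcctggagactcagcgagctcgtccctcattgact
LINC01278 (chrX:63561046-63561345, minus strand): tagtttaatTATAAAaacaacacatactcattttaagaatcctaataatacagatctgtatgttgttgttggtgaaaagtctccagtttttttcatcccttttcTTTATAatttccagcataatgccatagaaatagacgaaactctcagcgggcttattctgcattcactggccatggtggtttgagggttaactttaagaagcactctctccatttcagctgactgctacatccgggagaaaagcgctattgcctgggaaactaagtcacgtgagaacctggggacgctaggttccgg
LINC02057 (chr5:61264880-61265179, minus strand): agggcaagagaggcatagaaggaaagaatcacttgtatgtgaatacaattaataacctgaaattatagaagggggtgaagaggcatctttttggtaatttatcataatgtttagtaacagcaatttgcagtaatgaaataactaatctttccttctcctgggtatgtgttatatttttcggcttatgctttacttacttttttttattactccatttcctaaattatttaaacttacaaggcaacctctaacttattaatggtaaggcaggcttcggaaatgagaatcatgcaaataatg
LINC00482 (chr17:81309199-81309498, minus strand): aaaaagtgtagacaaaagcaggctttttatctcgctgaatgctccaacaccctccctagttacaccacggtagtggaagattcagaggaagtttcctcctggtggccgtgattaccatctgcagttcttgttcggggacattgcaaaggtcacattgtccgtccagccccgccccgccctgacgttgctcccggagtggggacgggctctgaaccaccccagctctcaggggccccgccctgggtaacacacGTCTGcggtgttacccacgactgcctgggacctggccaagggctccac

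The LINC01134 and LINC00482 windows each held 1 CAGAC on the minus strand of the promoter, and LINC00857 held GGCGCC at 2 places. In the LINC02709 window there was 1 AP-1 site, and the LINC01278 window had TATAAA once on each strand. None of the 7 motifs was found for LINC02057, whose RefSeq start lies 39882 bases from the deposited one. These letters are common: CAGAC occurred in 26 of the 64 promoters (40.6%) and in 45.0% of 27305 promoters in the table. GGCGCC occurred in 15.6% against 19%, the kappa B site in 21.9% against 25.1%, TATAAA in 15.6% against 12%, and AP-1 in 4.69% against 7.76%. The interferon element was in 1 of the 64 (1.56%) against 3.65%, and the full SMAD box in 0 of them against 0.201%. GC content was 70.7% for LINC01134, 64.7% for LINC00857, 58.3% for LINC00482, 56.0% for LINC02709, 40.3% for LINC01278 and 32.3% for LINC02057. The median was 59.3% over the 64 promoters and 58.3% over all of them.

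LINC01134 (ENSG00000236423, chromosome 1, 3900347 to 3917225, plus strand) had the lowest fold change of the 85. Its 6 levels were 4.68, 4.73 and 3.54 CPM with WT and 2.56, 2.26 and 2.93 CPM with R272K. All WT libraries lay above all R272K libraries. The log2 fold change was -0.74 (SE 0.199), with an adjusted p of 0.106 in edgeR's test and an interval from -1.17 to -0.31. It starts 54 bases from C1orf174, a protein-coding gene that runs the other way, and C1orf174 stood at 39.3 ± 4.6 and 34.8 ± 3.38 CPM (SD, n = 3 each; log2 fold change -0.18, adjusted p = 0.442). LINC01134 was called only when no filter was put on low counts (adjusted p = 0.0465). Across the 19 alternatives its adjusted p ran from 0.0465 to 0.512.

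LINC00857 (ENSG00000237523, chromosome 10, 80207372 to 80219657, plus strand) has been described as raised in several carcinomas. It stood at 22.4, 19.06 and 20.4 CPM with WT. The R272K libraries had 19.04, 14.7 and 14.7 CPM. The groups met closely, since the highest R272K library was just under the lowest WT library. The log2 fold change was -0.36 (SE 0.117, adjusted p = 0.18). ANXA11, which encodes an annexin and lies 1800 bases away on the other strand, was at 123.6 CPM in both groups.

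LINC02709 (ENSG00000245522, chromosome 11, 9754770 to 9759533, minus strand) had 8.16, 6.83 and 9.04 CPM with WT and 5.97, 5.59 and 6.58 CPM with R272K. Its log2 fold change was -0.41 (SE 0.145, adjusted p = 0.222). Its span overlaps SBF2-AS1 on the other strand, and without stranded counting reads of the pair cannot be told apart. SBF2-AS1 had a log2 fold change of -0.10 (adjusted p = 0.797). SWAP70, the nearest protein-coding gene at 1777 bases, stood at 0.09 (adjusted p = 0.503).

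LINC01278 (ENSG00000235437, chromosome X, 63222993 to 63561095, minus strand) was one of the better counted of the 6, with 2293 counts. Its levels of 26.7, 25.8 and 27.0 CPM with WT were tightly grouped. R272K replicate 2 had 25.1 CPM, close to WT, whereas replicates 1 and 3 had 21.3 and 21.6 CPM. The log2 fold change was -0.23 (SE 0.0898, adjusted p = 0.27). Its span holds the protein-coding gene SPIN4 on the same strand, which had a log2 fold change of -0.02 (adjusted p = 0.935).

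LINC02057 (ENSG00000249279, chromosome 5, 61201304 to 61304811, minus strand) stood at 7.53, 8.86 and 7.67 CPM with WT and 5.97, 6.59 and 6.51 CPM with R272K. Its log2 fold change was -0.33 (SE 0.132, adjusted p = 0.275). The nearest protein-coding gene, ZSWIM6, is 27447 bases away and had a log2 fold change of -0.28 (adjusted p = 0.18). LINC00482 (ENSG00000185168, chromosome 17, 81303771 to 81309278, minus strand) was the one of the 6 with a higher mean in R272K cells. It had 5.99, 4.80 and 4.98 CPM with WT and 7.09, 6.39 and 6.71 CPM with R272K, without overlap. On the log2 scale this was 0.35 (SE 0.145, adjusted p = 0.289).

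**Figure D2:**
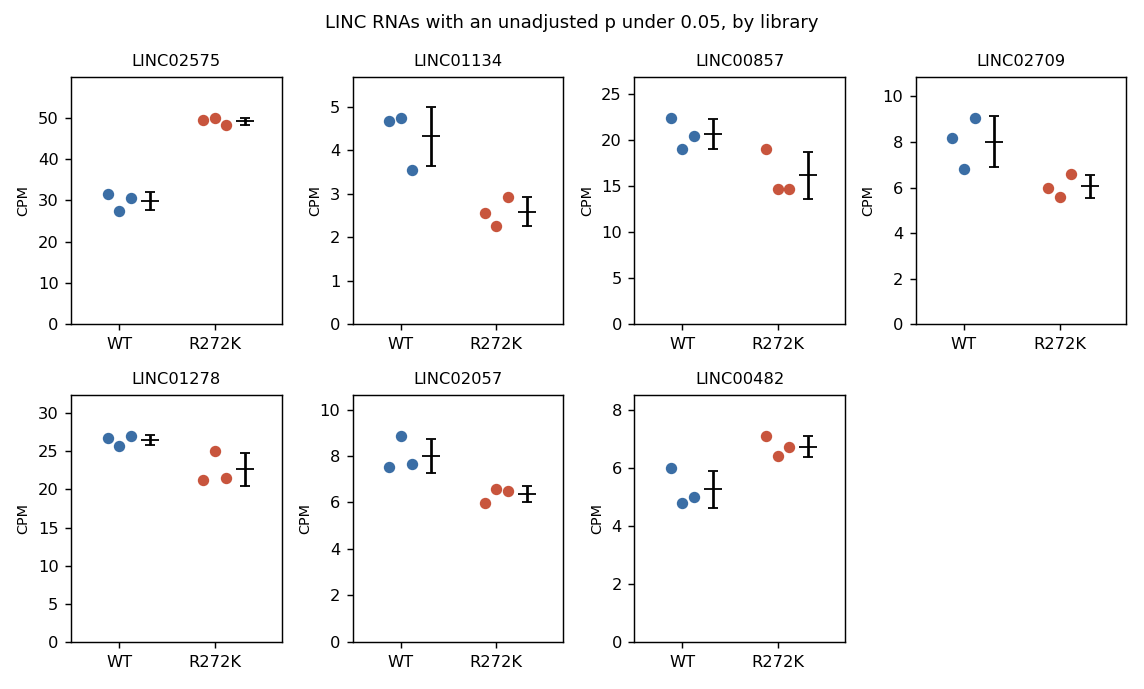
CPM of LINC02575 and the 6 other LINC RNAs with an unadjusted p under 0.05 in each library (blue, WT replicates 1 to 3; red, R272K replicates 1 to 3; black, mean and SD, n = 3), on axes that start at 0. The gap is widest for LINC02575, at 27.5 to 31.5 against 48.2 to 49.9 CPM, and narrow for LINC00857.

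Of the 8 most abundant of these RNAs per length, LINC02575 was the one called. LINC00857 and LINC02057, described above, are also among the 8, and the groups overlapped for the other 5. LINC00205, which starts 137 bases from the O-fucosyltransferase gene POFUT2 on the other strand, led with 39.7, 47.3 and 46.0 TPM with WT and 45.7, 46.3 and 46.8 TPM with R272K. With 10166 counts it was the most precisely measured of the 85. Its log2 fold change was 0.05 (SE 0.0637, adjusted p = 0.796), and the interval from -0.09 to 0.18 shows that a change of 1.5-fold either way lies outside it. POFUT2 was at 0.03 (adjusted p = 0.842). LINC00888 came next at 42.1 ± 0.69 and 43.5 ± 1.08 TPM (SD, n = 3 each; log2 fold change 0.03, adjusted p = 0.919). Its WT libraries lay within the range of LINC00205, and its R272K libraries, at 42.6 to 44.7 TPM, lay below those of LINC00205. A clear step led down to LINC00511 at 28.9 ± 2.48 and 28.5 ± 1.28 TPM (log2 fold change -0.04, adjusted p = 0.847), an RNA often described as raised in cancers. It is the longest of the 85 genes, spanning 350382 bases.

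Another 5 RNAs followed between 21.4 and 23.7 TPM, with the first 4 closer to each other than their spread. LINC02057 averaged 23.7 TPM, LINC00623 23.6, LINC00857 23.3, LINC00662 22.8 and LINC02575 21.4 over all 6 libraries. LINC00623 had a log2 fold change of -0.20 (adjusted p = 0.498) and LINC00662 of -0.06 (adjusted p = 0.767). By group LINC02575 went from below the other 4 with WT, at 16.0 TPM, to at or above them with R272K, at 26.8 TPM, where LINC00662 had 22.5, LINC00623 22.2, LINC02057 21.1 and LINC00857 20.7 TPM. The median over the 85 was 7.07 TPM and the lowest, LINC00461, had 1.22 TPM. Tested protein-coding genes had a median of 24.5 TPM. Levels of at least 10 TPM were reached by 25 of the 85 and of at least 5 TPM by 55.

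**Figure D3:**
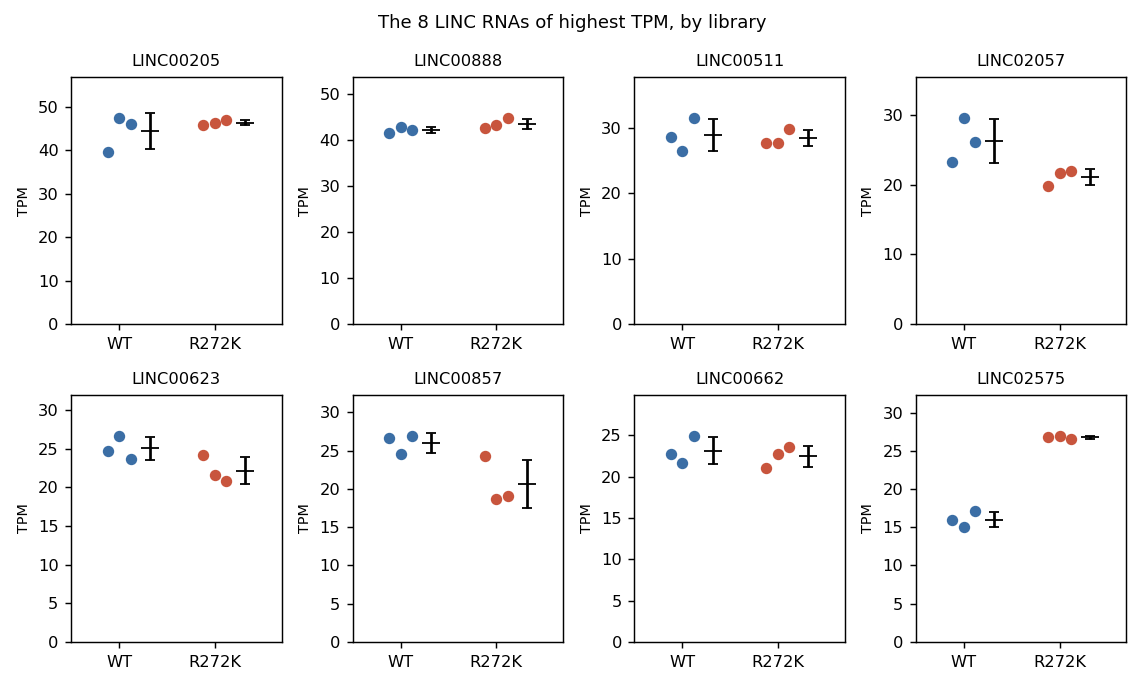
TPM of the 8 LINC RNAs of highest mean TPM in each library (blue, WT; red, R272K; black, mean and SD, n = 3), on axes that start at 0. LINC02575 is the panel with a wide gap, from 16.0 to 26.8 TPM in the mean, while LINC00205 and LINC00888 average 42.1 to 46.3 TPM in each group.

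Several members lie beside genes of endodermal or developmental interest. LINC00261 is transcribed near FOXA2, the forkhead factor of foregut endoderm, and is known for its link to FOXA2 in endoderm differentiation. It had 23.0, 28.7 and 26.1 CPM with WT and 28.2, 31.4 and 26.6 CPM with R272K, which overlapped (log2 fold change 0.15, SE 0.0992, adjusted p = 0.532). FOXA2, 2356 bases away, stood at -0.12 (adjusted p = 0.533). LINC00461, a brain-enriched RNA beside MEF2C, had 2.83 ± 0.569 and 3.64 ± 0.631 CPM (SD, n = 3 each; log2 fold change 0.35, adjusted p = 0.49). LINC01186 on chromosome X has been reported as a target of TGF-β and SMAD3 in lung cancer cells. Its levels were 3.08, 2.70 and 2.36 CPM with WT and 3.35, 3.19 and 3.06 CPM with R272K, which overlapped by 1 library (log2 fold change 0.23, SE 0.195, adjusted p = 0.63). LINC01895 lies 28076 bases from TGIF1, the gene of a repressor that binds SMADs, and had a log2 fold change of 0.16 (adjusted p = 0.615), with TGIF1 at 0.07 (adjusted p = 0.658).

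The ends of the ranking held RNAs with few counts, such as LINC02605 with 215, but also LINC02575 with 3669 and LINC00857 with 1722. The SD of the log2 fold changes was 0.251 over RNAs with under 400 counts and 0.233 over those with at least 400 but under 1000. Over RNAs with 1000 counts or more it was 0.207, a value that LINC02575 at 0.72 widens. Without LINC02575, values at that depth ran only from -0.36 (LINC00857) to 0.15 (LINC00261). They ran from -0.41 to 0.36 in the middle class and from -0.74 to 0.40 under 400 counts. Beside LINC02575, the highest of all members were LINC01237 at 0.40 (SE 0.21, adjusted p = 0.413), LINC02605 at 0.39 (SE 0.286, adjusted p = 0.578), LINC01239 at 0.36 (SE 0.218, adjusted p = 0.491) and LINC00461. None of these 4 separated the groups. LINC00869 at -0.40 (SE 0.238, adjusted p = 0.485) and LINC02901 at -0.37 (SE 0.224, adjusted p = 0.483) stood near the lower end, also with overlap. LINC01237 had 2.62, 4.60 and 3.73 CPM with WT and 4.86, 5.39 and 4.10 CPM with R272K, so the lowest value came from WT replicate 1. All 6 moved with single libraries. When 1 library was left out, log2 fold changes ran from 0.20 to 0.60 for LINC01237, from 0.13 to 0.72 for LINC02605, from 0.13 to 0.52 for LINC01239 and from 0.20 to 0.51 for LINC00461. They ran from -0.60 to -0.20 for LINC00869 and from -0.57 to -0.25 for LINC02901. The lowest values of LINC01237, LINC02605 and LINC01239 came without WT replicate 1, that of LINC00461 without R272K replicate 3. The values nearest 0 came without R272K replicate 2 for LINC00869 and without R272K replicate 1 for LINC02901.

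Depth set how much could be seen. The 20 RNAs with 1000 counts or more had a median SE of 0.093 on the log2 scale, the 26 with at least 400 but under 1000 counts 0.148, and the 39 with under 400 counts 0.215. Unadjusted p-values under 0.05 were found for 3 of the 20, 3 of the 26 and 1 of the 39. Over all genes tested the share was 14.3%, and 15.9% in the members' count range. Intervals of 95% lay wholly inside 2-fold either way for 82 of the 84 RNAs that were not called, the exceptions being LINC01134 and LINC02605. They lay inside 1.5-fold either way for 47 of the 84. The intervals of the others reached 1.5-fold in at least 1 direction.

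**Figure D4:**
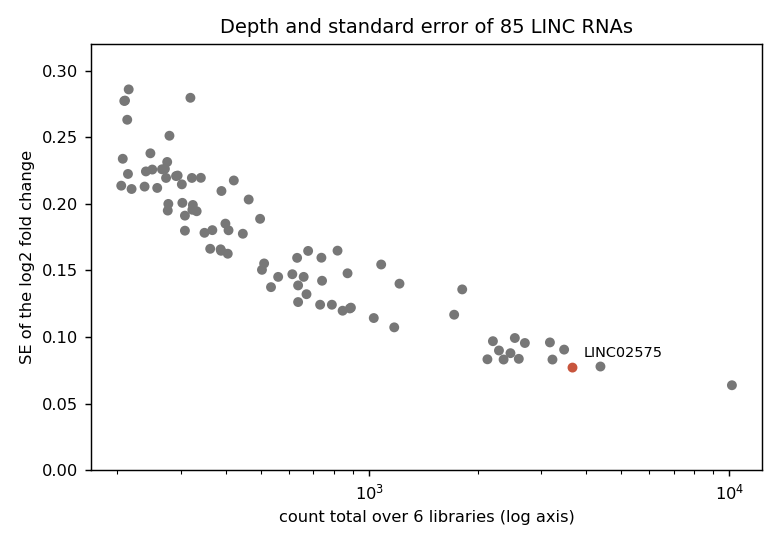
Standard error of the log2 fold change against the count total over 6 libraries (log axis) for the 85 LINC RNAs, with LINC02575 in red. The error falls from a median of 0.215 under 400 counts to 0.0637 for LINC00205.

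The genes beside LINC02575 were looked at after its value was seen. Within 50 kb of it, 4 other genes passed the filter on low counts. On its 3′ side lie TSPEAR on the minus strand, whose end is 2374 bases away and which encodes a secreted protein with EAR repeats, and 2 non-coding RNAs on the plus strand. TSPEAR-AS1 had 3.19, 3.18 and 3.80 CPM with WT and 4.201, 4.66 and 5.93 CPM with R272K. TSPEAR-AS2 had 2.45, 3.18 and 3.21 CPM with WT and 4.33, 4.33 and 4.50 CPM with R272K. TSPEAR itself had 2.395, 3.18 and 3.34 CPM with WT and 3.74, 4.46 and 3.84 CPM with R272K. For each of the 3 all R272K libraries were above all WT libraries, as for 10.9% of all genes tested. Log2 fold changes were 0.54 for TSPEAR-AS1 (adjusted p = 0.202), 0.58 for TSPEAR-AS2 (adjusted p = 0.16) and 0.44 for TSPEAR (adjusted p = 0.326), and none was called in any of the 19 alternatives. Both antisense RNAs lie inside TSPEAR, so without stranded counting the 3 are not separate measurements. LRRC3, on the 5′ side and starting 30.0 kb from LINC02575, had -0.14 (adjusted p = 0.69), with overlapping groups.

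**Figure D5:**
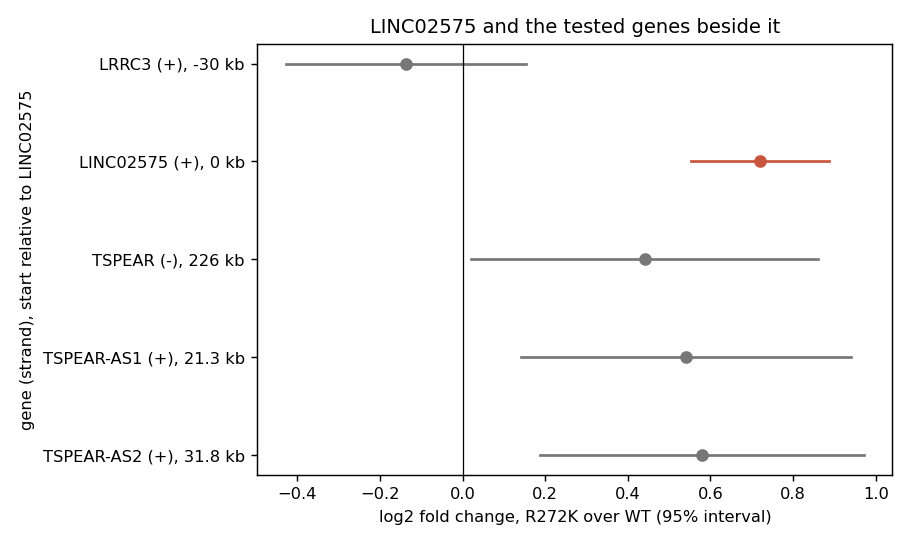
Log2 fold change of R272K over WT SMAD4 with 95% intervals for LINC02575 (red) and the 4 tested genes within 50 kb, each with its strand and the distance of its start from that of LINC02575. LRRC3 crosses 0, and TSPEAR, TSPEAR-AS1 and TSPEAR-AS2 lie between 0.44 and 0.58.

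The 85 genes lay on 21 chromosomes, 13 of them on chromosome 1, and spanned 1050 to 350382 bases, with a median of 19681. In release 29 the longest transcript had 1 exon for 15, 2 exons for 21 and 3 or more for 49. The nearest tested protein-coding gene was within 5 kb for 28 and within 50 kb for 60, with LINC00662 the farthest at 1411315 bases. Among these 81 distinct neighbours 1 was called, against 1.45% of all tested protein-coding genes. It was TIPARP, an ADP-ribosyltransferase gene 40573 bases from LINC00886. TIPARP fell from 176 ± 12.7 to 118 ± 2.57 CPM (SD, n = 3 each; log2 fold change -0.57, adjusted p = 0.000629), while LINC00886 was at 0.21 (adjusted p = 0.631). Across the 85 pairs, which share their libraries, Pearson's r between the fold changes of RNA and neighbour was 0.24 and Spearman's rho 0.10. CEBPB on chromosome 20, the nearest such gene to LINC01273 and LINC01270, was at -0.33 (adjusted p = 0.0515). LINC01273 was at 0.03 (SE 0.16, adjusted p = 0.957) and LINC01270 at 0.11 (SE 0.21, adjusted p = 0.853), so neither differed from 0 beyond its error.

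Of the 85, 5 start within 1000 bases of a tested protein-coding gene that runs the other way. Besides LINC00205 and LINC01134 these were LINC01089 with SETD1B, LINC01547 with SLX9 and LINC02340 with RPL21. None of the 5 partners was called, and RNA and partner had the same sign in 3 pairs. The span of 26 members overlapped another tested gene, on the opposite strand for 18 and on the same strand for 13. Counts of the 18 can hold reads of the partner if strand was not used. For the 13, strand would not separate the reads, and LINC01237 and LINC01238 overlap each other in this way. The 7 members LINC00680, LINC00869, LINC00888, LINC01145, LINC01238, LINC03009 and LINC03025 have 2 identifiers under 1 symbol, so which of the 2 genes their counts come from is uncertain.

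Other long non-coding RNAs give a frame. Of 40 well-studied ones without a LINC number, 29 were tested, with 1 higher, 1 lower and 27 not called and a median log2 fold change of -0.10. The share called was 6.9%, against 1.21% of all genes tested. The hypoxia-induced MIR210HG rose to 18.7 ± 1.89 CPM with R272K against 11.4 ± 2.07 CPM with WT (SD, n = 3 each; log2 fold change 0.71, adjusted p = 0.019). GAS5, a host of snoRNAs, fell from 120 ± 8.93 to 93.8 ± 5.73 CPM (-0.36, adjusted p = 0.0339). NEAT1, the scaffold of paraspeckles, was at 0.06 (adjusted p = 0.803) and NORAD at 0.01 (adjusted p = 0.946). Over all other genes with a long non-coding biotype, 1700 were tested and 0.235% called, 1 higher and 3 lower, against 1.45% of 12811 protein-coding genes. The machinery that ends and degrades such RNAs was tested through 66 of 68 listed genes. These cover the Integrator and cleavage complexes, the nuclear exosome, cap-binding, m6A and export factors and cytoplasmic decay. None of the 66 was called by edgeR, against 1.21% of all genes tested, and their median log2 fold change was -0.03. An unadjusted p under 0.05 was found for 8 of the 66, against 14.3% of all genes. The smallest p was that of PHAX, an export adaptor for capped RNA (-0.25, adjusted p = 0.0928).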

How the data were processed

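RNA-seq of 6 PANC-1 libraries was analysed, 3 with WT and 3 with R272K SMAD4. The authors deposited 2 tables by gene symbol, one of read counts and one of other values, which are TPM. fastp 0.23.0 and HISAT2 2.1.0 are named, with SAMtools and with HTSeq 0.10.0 and GRCh38, per the submitters' processing notes. The labels state neither strand use in counting nor the annotation release. Both tables hold 62710 lines for 60835 symbols, and each symbol was used once, since its repeated lines were identical.

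edgeR's filter (minimum count 10, minimum total 15) left 15911 genes, which included all 85 members. After TMM scaling, edgeR's quasi-likelihood test (robust, two-sided) compared the groups, with group as the only term and Benjamini-Hochberg adjustment over all genes tested. Called means an adjusted p under 0.05. The SE is the fold change divided by the root of the F statistic, and 95% intervals use its degrees of freedom. Biotypes came from GENCODE release 29, matched by Ensembl identifier for 85 of 85 members. Neighbours and overlaps use deposited coordinates. Versions were edgeR 4.0.16, DESeq2 1.42.0 and limma 3.58.1 in R 4.3.3, and pandas 2.3.3 in Python 3.11.15.

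The members, lists and alternatives were chosen with earlier results of these data known. Named members were those called, those with an unadjusted p under 0.05, the 8 of highest TPM, the 5 highest and 5 lowest fold changes and those at the edge of the rule. LINC00261, LINC01186, LINC01895 and members named for position were chosen after their values were seen. Alternatives were other scalings and filters, DESeq2, limma-voom, limma on log2(TPM + 1) or log2(TPM + 0.1), a replicate block, each library left out, removal of each library's gene length trend, and limits of 100 or 400 counts. Counts of any 2 replicates differed by more than sampling noise, with a chi-square over its degrees of freedom of 1.83 or more. On simulated counts for this comparison with 15911 genes, 60% of 50 genes set to a 1.5-fold change and 84% of 50 set to 2-fold were found by edgeR, with 7 false calls among 172. The changed genes were drawn from all genes tested, whatever their depth, so these shares are not those for the members. Counts were drawn gene by gene, without a deviation shared by many genes such as that of WT replicate 1. Recovery and false calls in the real libraries can therefore differ from these figures.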

Additional observations from a re-analysis of the deposited data

How the results depend on the processing

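LINC02575 was called under all 19 alternatives. The count of members called was 1 in each of them but the analysis with no filter on low counts. There LINC01134 joined LINC02575 and 2 of the 85 were called, beside 474 of 36623 over all genes. A limit of 100 counts also gave 2 from a larger set of members, the second being LINC01615. Leaving out any 1 library gave 1 each time. The members' median log2 fold change moved by more than its spread between R272K libraries (SD 0.023) with limma on log2(TPM + 1) (0.0156) or log2(TPM + 0.1) (0.0169, also with no filter). In these fits the median over all genes was 0.0187, 0.0215 and, with no filter, 0.0316, against -0.00112 in the main analysis. The members' median also moved to 0.0209 with a limit of 100 counts and to -0.0351 with one of 400. Without 1 library it lay between -0.0275 and 0.00974. Of 21 named members, 18 kept their sign under all 19 alternatives, LINC00205, LINC00888 and LINC00665 being the exceptions, each in 1.

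Over all genes, calls numbered 474 of 36623 tested with no filter and 619 of 15911 with the length trend removed, against 193 of 15911 in the main analysis. With limma on log2(TPM + 1) and log2(TPM + 0.1) they numbered 104 and 101 of 15911, and with the latter and no filter 52 of 36623. Without 1 library they ran from 55 (without R272K replicate 3) to 875 (without WT replicate 1), where 1 of the 85 was still called. The replicate block gave 262 calls over all genes and 1 among members. Same-numbered libraries did not deviate together (correlations -0.065, -0.00715 and -0.012), so no pairing by number was seen. With 3 libraries per group, 1 of them WT replicate 1 far from the rest, such correlations cannot exclude a pairing. The cause of these shifts was not tested. Depth limits the 39 members under 400 counts, whose median SE was 0.215.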

Other observations

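Below the limit of 200 counts, 109 of 973 LINC symbols with a count passed the filter on low values. Those that passed are biased to RNAs high in at least 1 group, so no share is drawn from them. LINC01615 (ENSG00000223485, chromosome 6, 169157162 to 169163007, minus strand) was the one called by edgeR. It had 46, 37 and 39 counts with WT and 17, 16 and 14 with R272K, or 2.56 ± 0.0612 and 1.03 ± 0.106 CPM (SD, n = 3 each). Its log2 fold change was -1.31 (SE 0.25, adjusted p = 0.022), larger in size than that of any of the 85. All WT libraries lay above all R272K libraries. The call held in 14 of 19 alternatives and was lost without WT replicate 2 (adjusted p = 0.0838), without R272K replicates 1, 2 or 3 (adjusted p = 0.0925, 0.103 and 0.14) and with limma on log2(TPM + 0.1) with no filter (adjusted p = 0.106). The nearest tested protein-coding gene, THBS2, was 52773 bases away and stood at 0.36 (adjusted p = 0.678).

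LINC01293 (ENSG00000230836, chromosome 2, 74940258 to 74942670, plus strand) had 42, 39 and 40 counts with WT and 18, 21 and 17 with R272K. Its log2 fold change was -1.05 (SE 0.243) and its adjusted p 0.0583 in edgeR's test. It was called in 5 of 19 alternatives. LINC01291, a member with 323 counts that ends just upstream on the same strand, had 3.19, 3.72 and 4.52 CPM with WT and 3.41, 2.86 and 3.13 CPM with R272K, which overlapped (log2 fold change -0.28, adjusted p = 0.56).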
